A study of Homo sapiens with 4 samples.

Results

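Transcripts of 8 genes for lipoprotein receptors and the proteins that control them were followed in 2 human liver cancer cell lines. The members were taken by gene symbol, and each stood on 1 of the 18398 transcript rows of every library. They are VLDLR, LRP8, LRP1, LRP5 and LRP6 of the low-density lipoprotein receptor family, the scavenger receptor gene SCARB1, the ubiquitin ligase gene MYLIP and the chaperone gene LRPAP1. Huh1 and Huh7 are established hepatocellular carcinoma lines. Each was transfected with a negative control siRNA or with an siRNA against ODC1, the gene of ornithine decarboxylase, which makes the polyamine putrescine. The 4 groups were Huh1 with control siRNA, Huh1 with ODC1 siRNA, Huh7 with control siRNA and Huh7 with ODC1 siRNA, and each had 1 library. The sources used here do not give the siRNA sequences, their dose or the time after transfection. Levels are in RPKM, reads per kilobase of transcript scaled to library depth, so levels of different genes can be compared.

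Lipoprotein receptors bind particles of lipid and protein at the cell surface, and most carry them inward through clathrin-coated pits and release them in endosomes. Liver cells clear most plasma lipoproteins in this way. Their family shares ligand-binding repeats and propeller domains, but its members differ in use. VLDLR and LRP8 take up triglyceride-rich particles and also transmit the reelin signal, LRP1 clears remnants and protease complexes, and LRP5 and LRP6 are co-receptors for Wnt ligands. SCARB1 belongs to another family and takes cholesteryl ester from high-density lipoprotein without engulfing the particle. MYLIP, a target of the sterol-sensing LXR receptors, marks VLDLR and LRP8 for degradation. LRPAP1, also called RAP, keeps ligands off the receptors in the endoplasmic reticulum.

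The sequences just before the start sites of VLDLR, LRP8 and MYLIP are shown because the first pair differed most between the lines, in opposite directions, and the third encodes their ligase. They are the 250 bases before each RefSeq start in GRCh38.p14, read 5′ to 3′ on the gene's strand. They span chr9:2621537-2621786 on the plus strand, chr1:53328071-53328320 on the minus strand and chr6:16128836-16129085 on the plus strand. Capitals mark GC boxes (GGGCGG on either strand) and CCAAT boxes (CCAAT on either strand).
VLDLR: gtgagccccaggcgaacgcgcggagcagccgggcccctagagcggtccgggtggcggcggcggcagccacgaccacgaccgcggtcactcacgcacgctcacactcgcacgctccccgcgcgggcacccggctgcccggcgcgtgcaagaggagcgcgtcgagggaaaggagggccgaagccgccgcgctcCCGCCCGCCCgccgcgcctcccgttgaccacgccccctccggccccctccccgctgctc
LRP8: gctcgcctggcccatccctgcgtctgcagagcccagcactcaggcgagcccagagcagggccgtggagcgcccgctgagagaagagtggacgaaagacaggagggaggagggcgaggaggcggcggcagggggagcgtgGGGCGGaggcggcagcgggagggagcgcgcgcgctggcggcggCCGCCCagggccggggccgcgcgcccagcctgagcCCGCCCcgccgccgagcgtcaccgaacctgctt
MYLIP: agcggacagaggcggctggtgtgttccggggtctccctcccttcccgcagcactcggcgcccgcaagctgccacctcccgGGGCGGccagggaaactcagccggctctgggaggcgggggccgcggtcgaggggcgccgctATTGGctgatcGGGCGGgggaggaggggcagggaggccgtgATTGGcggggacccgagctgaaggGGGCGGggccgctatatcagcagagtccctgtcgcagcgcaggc

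The VLDLR window holds 2 overlapping GC boxes, and the LRP8 and MYLIP windows hold 3 each. A GC box occurs in 42.6% of the 35116 windows of this length in the RefSeq table. MYLIP has 2 CCAAT boxes, a word found in 32.0% of windows, and the other 2 sequences have none. The word GCGTG, on either strand, occurs 5 times before VLDLR and 1 time before LRP8, against 32.2% of windows with at least 1. The sterol element TCACNCCAC was searched in the same way and is in none of the 3, nor in the windows of LRP1, LRP5 and LRPAP1. It is in 0.883% of all windows. All 3 sequences are rich in G and C (78.8%, 77.2% and 73.6%, against a median of 58% over the windows). These matches describe the letters only, and nothing in the data measures binding there.

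Library depth was between 10215332 and 13384836 reads, as recovered from the spacing of low values. ODC1 stood at 0.242 times its control level in Huh1 and 0.0449 times in Huh7, in the direction of the labels. All 10 hepatocyte and hepatoma markers examined were expressed in both lines, among them ALB, AFP and HNF4A. Their summed level was 5795 RPKM (control) and 5122 RPKM (ODC1 siRNA) for Huh1, and 2964 and 2427 RPKM for Huh7. ALB led this sum, and the list had no single direction. With control siRNA AFP, TTR, FGA, FGB and FGG were higher in Huh7 and the other 5 were lower, and TTR and APOA2 were higher with ODC1 siRNA in both lines while the other 8 were lower. The 5 fibroblast and stellate cell markers summed to 12.1 and 15.7 RPKM in Huh1 and to 252 and 325 RPKM in Huh7. COL1A1 and LUM made up nearly all of that sum in Huh7, while DCN and PDGFRB stayed under 1 RPKM in each library. None of the 5 blood cell markers and none of the 4 endothelial markers present reached 1 RPKM, and HBB, CDH5 and TEK were at 0 in all libraries. Levels of hepatocyte and fibroblast markers thus differed between the libraries, and their part in the results below was not tested. In bulk RNA, fewer cells of a type and less RNA per cell cannot be told apart.

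All 8 genes were expressed in all 4 libraries, over a range from 2.28 to 75.7 RPKM. SCARB1 was the highest of them in each library and lay above at least 86.9% of the 12039 genes tested, which are those that reached 1 RPKM in some library. In Huh1 with control siRNA the order after SCARB1 was LRP1, LRP8, LRP5, LRP6, LRPAP1, VLDLR and MYLIP. In Huh7 with control siRNA it was LRP5, LRP1, VLDLR, LRP6, LRPAP1, LRP8 and MYLIP. VLDLR and LRP8 thus held opposite places in the lines. With ODC1 siRNA, LRP5 passed LRP8 in Huh1 (22.9 and 19.7 RPKM) and MYLIP passed LRP8 in Huh7 (5.77 and 4.89 RPKM). Each level rests on 1 library, so neighbours in these orders have no replicate spread to be compared with.

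**Figure D1:**
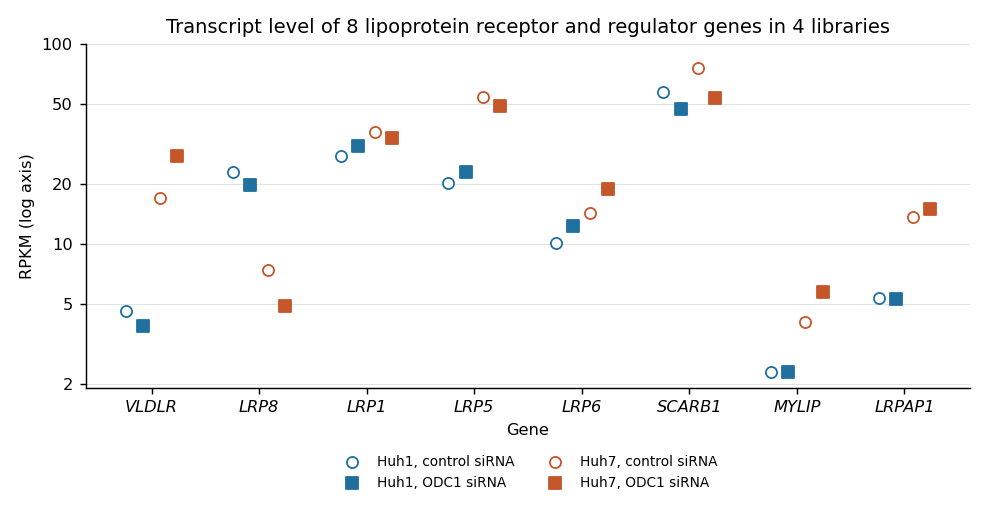
Level of each gene in RPKM (log axis) in the 4 libraries, 1 point per library. Open circles are control siRNA and filled squares ODC1 siRNA, with Huh1 in blue and Huh7 in orange. VLDLR is higher and LRP8 lower in both Huh7 libraries than in both Huh1 libraries.

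The difference between the lines was examined first, because it was larger than the effect of the siRNA for most of the genes. With control siRNA, 4 of the 8 genes differed at least 2-fold on the log2(RPKM + 1) scale. VLDLR, LRP5 and LRPAP1 were higher in Huh7 and LRP8 was lower. Over all 11896 genes with at least 1 RPKM in either control library, 27.2% differed as much, 17.0% being higher and 10.2% lower in Huh7. Limma was then fitted to all 4 libraries with line and siRNA as terms. It called all 8 genes different between the lines at an adjusted p under 0.05, with 7 higher and 1 lower in Huh7. In the same fit 73.9% of the 12039 genes were called, 43.1% higher and 30.8% lower, so the count for the receptor genes is not far above that of genes in general. The median difference was 0.68 over the 8 genes and 0.13 over all tested genes on the log2 scale. The p-values rest on how far the siRNA change differs between the lines, moderated over all tested genes. No replicate culture of a line was analysed.

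VLDLR had the largest difference of the 8. The Huh1 libraries held 4.60 RPKM (control) and 3.87 RPKM (ODC1 siRNA), and the Huh7 libraries held 16.9 and 27.5 RPKM in the same order. Both Huh7 values lay above both Huh1 values. The share of all tested genes that likewise did not overlap was not counted. Lack of overlap, here and below, is therefore not read as particular to these genes. The ratio of Huh7 to Huh1 was 3.68 with control siRNA (95% interval 3.31 to 4.09) and 7.12 with ODC1 siRNA (6.32 to 8.04). These intervals, and those below, are exact binomial intervals for the reads of 2 libraries, rounded to whole reads, and cover counting error only. In the limma fit the mean difference was 2.11 on the log2(RPKM + 1) scale (SE 0.18, adjusted p = 9.67e-06), and 7.50% of tested genes differed as much or more.

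LRP8, the other reelin receptor gene, had the opposite pattern. Its Huh1 values were 22.9 RPKM (control) and 19.7 RPKM (ODC1 siRNA), and its Huh7 values 7.38 and 4.89 RPKM. Both Huh1 libraries were above both Huh7 libraries. Huh1 exceeded Huh7 by a ratio of 3.10 with control siRNA (95% interval 2.85 to 3.38) and of 4.03 with ODC1 siRNA (3.60 to 4.50). The limma difference of Huh7 minus Huh1 was -1.66 (SE 0.11, adjusted p = 1.97e-06). Of the summed RPKM of this receptor pair, VLDLR made up 16.8% and 16.4% in Huh1 and 69.6% and 84.9% in Huh7, with control and ODC1 siRNA.

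Of the Wnt co-receptors, LRP5 differed more between the lines than LRP6. For LRP5 the Huh1 libraries held 20.2 RPKM (control) and 22.9 RPKM (ODC1 siRNA), and the Huh7 libraries 54.3 and 48.9 RPKM. The Huh7 libraries were both higher, by ratios of 2.69 (95% interval 2.52 to 2.86) and 2.14 (2.00 to 2.28), and the limma difference was 1.22 (SE 0.095, adjusted p = 5.32e-06). For LRP6 the Huh1 values were 10.1 RPKM (control) and 12.3 RPKM (ODC1 siRNA), against 14.3 and 18.7 RPKM for Huh7. Its groups did not overlap either, but the ratios were smaller at 1.42 (1.32 to 1.53) and 1.52 (1.42 to 1.63). The limma difference for LRP6 was 0.52 (SE 0.094, adjusted p = 0.00105).

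The endocytic receptor LRP1 was nearly even between the lines. The Huh1 libraries held 27.7 RPKM (control) and 30.8 RPKM (ODC1 siRNA), and the Huh7 libraries 36.4 and 34.0 RPKM. For its chaperone LRPAP1 the values were 5.36 and 5.30 RPKM (Huh1) and 13.6 and 15.0 RPKM (Huh7). Neither gene overlapped between the lines, and how common this is among all tested genes was not counted. LRP1 differed by 0.26 in the limma fit (SE 0.089, adjusted p = 0.0251) and LRPAP1 by 1.27 (SE 0.11, adjusted p = 7.93e-06). The LRP1 call was lost with upper quartile scaling (adjusted p = 0.112), quantile normalization (0.142), no filter (0.0557), limma without a trend (0.0746) and no siRNA term (0.0648).

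SCARB1 values were 57.5 RPKM (control) and 47.4 RPKM (ODC1 siRNA) for Huh1, and 75.7 and 53.9 RPKM for Huh7. The Huh7 library with ODC1 siRNA was below the Huh1 library with control siRNA, so the lines overlapped. The limma difference was 0.29 (SE 0.079, adjusted p = 0.00997), and this call too was lost with both other scalings, without a trend and without the siRNA term, at adjusted p between 0.0501 and 0.212. MYLIP values were 2.28 and 2.29 RPKM for Huh1, and 4.09 and 5.77 RPKM for Huh7, with no overlap. Its limma difference was 0.84 (SE 0.15, adjusted p = 0.000781), with ratios of 1.79 (95% interval 1.37 to 2.33) under control siRNA and 2.52 (1.92 to 3.32) under ODC1 siRNA.

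**Figure D2:**
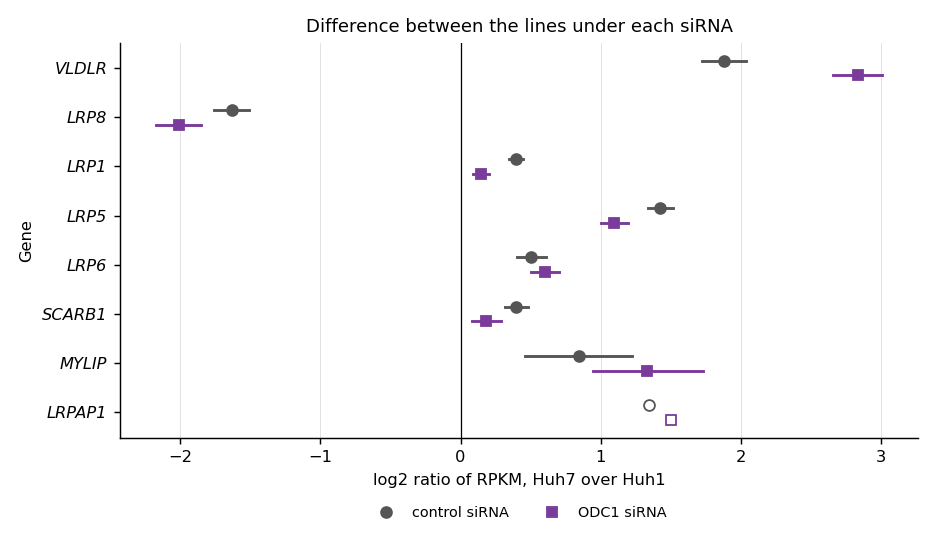
Log2 ratio of RPKM, Huh7 over Huh1, for each gene under control siRNA (grey circles) and ODC1 siRNA (purple squares). Bars are 95% counting intervals, and open symbols mark LRPAP1, whose read numbers were not recovered. VLDLR and LRP8 lie on opposite sides of 0.

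The effect of ODC1 siRNA was smaller. None of the 8 genes differed 2-fold in Huh1, where 0.0825% of 10912 genes did, or in Huh7, where 0.771% of 11416 genes did. Over both lines limma called none of the 8, against 2.12% of the 12039 genes tested. Of the calls over all genes 71.0% were higher with ODC1 siRNA, or 59.8% with upper quartile scaling and 76.9% with quantile normalization. At an unadjusted p under 0.05 limma counted 3 of the 8, which were SCARB1, LRP6 and LRP8, and 19% of all tested genes. The median change of the 8 genes was -0.0041 in Huh1 and 0.018 in Huh7, beside 0.021 and -0.0034 over all genes past the filter in each line. In each line 4 of the 8 were positive and 4 negative, MYLIP in Huh1 being positive by 0.0065 and turning to -0.0023 and -0.043 with upper quartile scaling and quantile normalization.

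SCARB1, the high-density lipoprotein receptor gene, came nearest to a call. The ratio of ODC1 to control siRNA was 0.825 in Huh1 (95% interval 0.772 to 0.883) and 0.712 in Huh7 (0.667 to 0.759). The library with ODC1 siRNA was the lower in both lines, by more than counting error. The mean change was -0.38 (SE 0.079, limma adjusted p = 0.0521). It passed with upper quartile scaling (limma adjusted p = 0.0241) and with a trend on counting variance (0.0408). In the other alternatives the limma adjusted p was 0.99998 with no line term and between 0.0796 and 0.303 in the rest.

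LRP8 was also the lower with ODC1 siRNA in both lines. Its ratio was 0.861 in Huh1 (95% interval 0.809 to 0.917) and 0.663 in Huh7 (0.585 to 0.752). The mean change of -0.36 (SE 0.11) did not pass in limma (adjusted p = 0.135). LRP6 was the higher in both lines, with a ratio of 1.22 in Huh1 (1.13 to 1.32) and 1.31 in Huh7 (1.23 to 1.40). Its mean change of 0.32 (SE 0.094) did not pass either (adjusted p = 0.124).

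VLDLR had the largest change of the 8 in Huh7 and the opposite sign in Huh1. The ratio of ODC1 to control siRNA was 1.63 in Huh7 (95% interval 1.52 to 1.74, 2046 and 1501 reads) and 0.841 in Huh1 (0.726 to 0.973, 316 and 448 reads). On the log2(RPKM + 1) scale the changes were 0.67 and -0.20, and they differed between the lines by 0.87. Of all tested genes, 1.15% differed between the lines by as much, and 3.32% had as large a change in Huh7. This difference is the 1 residual degree of freedom of the fit, so it could not be tested, and the mean over both lines was 0.23 (SE 0.18, limma adjusted p = 0.524).

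LRP1 and LRP5 had small changes of opposite sign in the lines. The LRP1 ratio was 1.11 in Huh1 (95% interval 1.07 to 1.16) and 0.934 in Huh7 (0.900 to 0.969), and the LRP5 ratio was 1.13 (1.05 to 1.22) and 0.902 (0.856 to 0.95). Their means over both lines were 0.026 (SE 0.089) and 0.013 (SE 0.095), with limma adjusted p of 0.904 and 0.962. MYLIP, the ligase gene, stood at nearly the same level in both Huh1 libraries, with a ratio of 1.01 that about 94 and 79 reads leave between 0.733 and 1.37. In Huh7 its ratio was 1.41 (1.13 to 1.76), and the mean change of 0.21 (SE 0.15) did not pass (limma adjusted p = 0.475). LRPAP1 had ratios of 0.988 in Huh1 and 1.10 in Huh7 and a mean change of 0.058 (SE 0.11, limma adjusted p = 0.809).

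**Figure D3:**
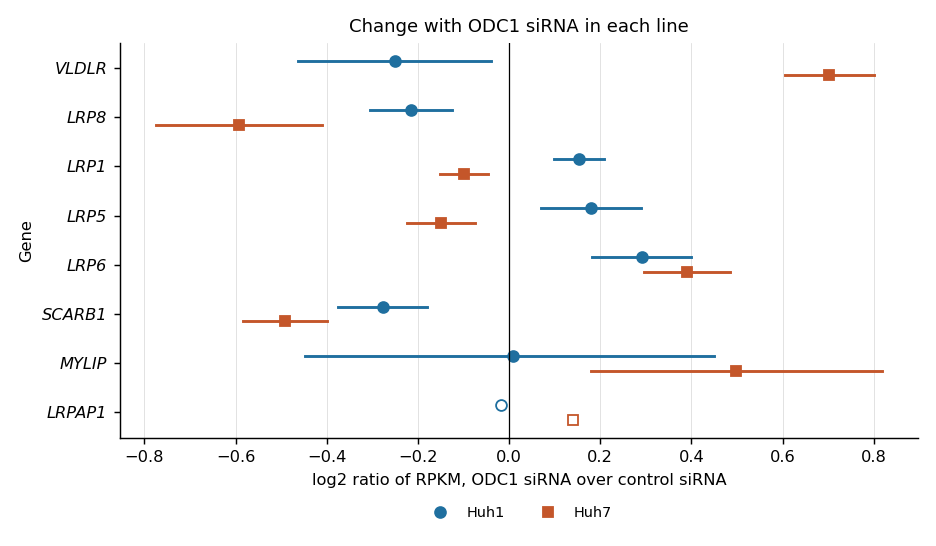
Log2 ratio of RPKM, ODC1 siRNA over control siRNA, for each gene in Huh1 (blue circles) and Huh7 (orange squares). Bars are 95% counting intervals, and open symbols mark LRPAP1, for which there is none. SCARB1 and LRP8 lie below 0 and LRP6 above 0 in both lines, while VLDLR lies on opposite sides.

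Genes that act with these receptors were examined as 5 lists. Among receptor adaptors, chaperones and trafficking factors, 17 of 18 were tested, 1 rose with ODC1 siRNA and none fell, beside the 2.12% of all genes called in either direction. The gene that rose was MESDC2, which encodes the chaperone that folds LRP5 and LRP6. In Huh1 it went from 9.56 to 15.6 RPKM, a ratio of 1.63 (95% interval 1.46 to 1.82). In Huh7 it went from 8.76 to 23.0 RPKM, a ratio of 2.63 (2.35 to 2.95). Both libraries with ODC1 siRNA were above both controls, and the lines did not differ past the threshold (0.21, limma adjusted p = 0.218). The mean change was 0.97 (SE 0.15, limma adjusted p = 0.0221). The call was kept with upper quartile scaling, a filter at 5 RPKM and a trend on counting variance, and lost in the other 5 alternatives. There the limma adjusted p was 0.99998 with no line term and between 0.0543 and 0.303 in the rest. Its exons overlap those of CEMIP on the other strand and of AC027808.1 on the same strand, so reads of these genes could be mixed, and the sources used here do not say whether counting used strand.

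Other members of that list had smaller changes. AP2M1, a subunit gene of the clathrin adaptor, had changes of 0.23 (Huh1) and 0.30 (Huh7, limma adjusted p = 0.0687), and EHD1, a recycling factor, 0.18 and 0.37 (adjusted p = 0.165). The list's median changes were 0.098 and 0.12, with 12 of 17 positive in Huh1 and 15 in Huh7. Over all 12039 tested genes the medians were 0.017 and -0.0020, with 6546 positive in Huh1 and 5914 in Huh7. PDZK1, the scaffold that holds SCARB1 at the liver cell membrane, had 72.5 and 72.9 RPKM in the Huh1 libraries against 9.77 and 7.0 RPKM in those of Huh7. The limma difference of Huh7 minus Huh1 was -2.99 (adjusted p = 6.27e-08). The adaptor gene DAB2 was higher in Huh7 by 1.59 and the perlecan gene HSPG2 by 3.34 (adjusted p = 6.12e-07 and 2.20e-08).

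Among 16 tested LXR and SREBP factors and feedback genes, none rose with ODC1 siRNA and 1 fell, where 181 rose and 74 fell of all 12039 genes. UBE2D3, of a ubiquitin-conjugating enzyme family with which MYLIP works, fell from 73.1 to 54.0 RPKM (Huh1) and from 102 to 78.3 RPKM (Huh7). Its mean change was -0.40 (SE 0.068, limma adjusted p = 0.0299). The call was kept with upper quartile scaling and a trend on counting variance and lost in the other 6 alternatives. There the limma adjusted p was 0.99998 with no line term and between 0.0538 and 0.293 in the rest. The related genes UBE2D1 and UBE2D2 did not share this fall. UBE2D1 changed by 0.018 (Huh1) and 0.33 (Huh7), and UBE2D2 by -0.018 and 0.043 (limma adjusted p = 0.387 and 0.954). For NR1H2, the LXR-beta gene, the changes were 0.11 (Huh1) and 0.46 (Huh7), and for RXRB, of its partner receptor family, 0.25 and 0.29 (limma adjusted p = 0.190 and 0.180). INSIG2, which retains SREBP factors in the endoplasmic reticulum, had changes of 0.031 and -0.61 (limma adjusted p = 0.331). Between the lines, the cholesterol exporter ABCA1 was higher in Huh7 by 1.85 and SREBF2, which encodes an SREBP factor, by 1.00 (limma adjusted p = 6.89e-07 and 1.74e-05). The LXR target SMPDL3A was lower, at -1.36 (limma adjusted p = 9.37e-06).

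The list of Wnt co-receptor partners, inhibitors and targets had 25 tested genes, and none passed for the siRNA. Its median changes were -0.0029 in Huh1 and -0.022 in Huh7, with 10 of 25 positive in each line. Of all 12039 tested genes 6546 were positive in Huh1 and 5914 in Huh7. DKK1, a secreted inhibitor that binds LRP5 and LRP6, stood at 0.414 and 0.493 RPKM in Huh1 and went from 59.3 to 28.7 RPKM in Huh7, a change of -1.02. LGR5, a Wnt target gene, went from 9.43 to 4.42 RPKM in Huh7 (-0.94) and was under 0.1 RPKM in Huh1. FZD1, a Wnt receptor gene, had changes of -0.095 (Huh1) and -0.38 (Huh7). None of the 3 passed over both lines (limma adjusted p = 0.291, 0.285 and 0.399). Other Wnt target genes of the list had no single direction in Huh7. AXIN2 changed there by 0.44 and TBX3 by 0.020, while SP5 changed by -0.0036 and GLUL by -0.35. Between the lines 16 of the 25 were higher in Huh7 and 3 lower, with a median difference of 0.70, beside 43.1% higher, 30.8% lower and a median of 0.13 over all tested genes. DKK1 was higher in Huh7 by 4.86, LGR5 by 2.82 and DKK3 by 2.72 (limma adjusted p = 1.92e-07, 5.11e-06 and 4.67e-08).

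Of the other receptors of the family and scavenger receptors, 12 of 16 were tested and none passed for the siRNA. Their median changes were -0.091 in Huh1 and -0.099 in Huh7, with 3 and 4 of 12 positive, where 6546 and 5914 of all 12039 genes were. The scavenger receptor gene CXCL16 was at -0.18 and -0.48 (limma adjusted p = 0.10), CD36 at -0.32 and -0.27 (0.193) and LRP12 at -0.22 and -0.35 (0.175). OLR1 had the other sign, at 0.023 in Huh1, where it was near 0 RPKM, and 0.44 in Huh7 (limma adjusted p = 0.437). Between the lines 5 were higher in Huh7 and 6 lower, so 11 of 12 were called where 73.9% of all genes were. For LRP4 the difference was -1.49 with control siRNA and -1.51 with ODC1 siRNA (limma adjusted p = 4.38e-06 over both). The fatty acid and scavenger receptor CD36 had 48.1 and 38.3 RPKM in the Huh1 libraries against 0.552 and 0.290 RPKM in those of Huh7 (limma adjusted p = 3.27e-09). The oxidized lipoprotein receptor OLR1 was the reverse, with 0 and 0.0162 RPKM in the Huh1 libraries against 15.0 and 20.6 RPKM (limma adjusted p = 4.36e-08).

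Ligands of LRP1, VLDLR and LRP8 had 13 tested genes, none of which passed for the siRNA. The protease inhibitor gene A2M, a ligand of LRP1, had changes of -0.31 (Huh1) and -0.46 (Huh7, limma adjusted p = 0.104). THBS1, encoding thrombospondin, had 0.44 and 0.12 (limma adjusted p = 0.134). A2M was higher in Huh7 by 4.36, HPX by 3.11 and CTGF by 2.57 (limma adjusted p = 5.86e-09, 6.57e-08 and 1.85e-08).

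**Figure D4:**
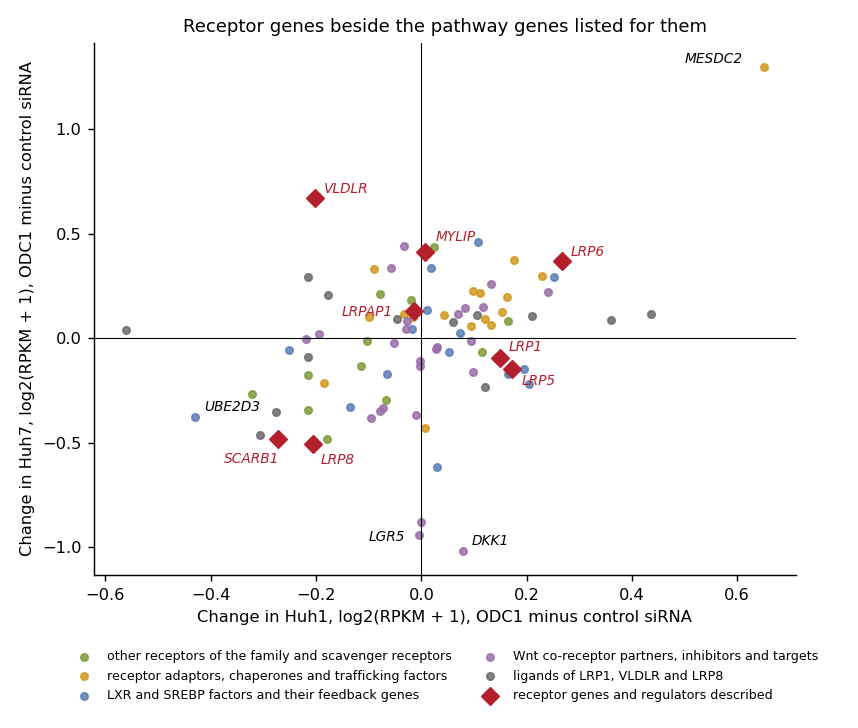
Change with ODC1 siRNA in Huh1 (horizontal) and Huh7 (vertical) on the log2(RPKM + 1) scale, 1 point per gene. Small points are the tested genes of the 5 lists, and red diamonds are the 8 receptor and regulator genes. MESDC2 stands apart at the upper right, at 0.65 in Huh1 and 1.30 in Huh7.

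Likeness of pattern was measured as the distance between centred log2(RPKM + 1) values over the 4 libraries, among the genes of these lists. LRP8 lay nearest to LRP12, a further family member (distance 0.22), and LRP6 to the kinase gene GSK3B (0.11). LRP1 lay nearest to INSIG1 (0.071), LRPAP1 to COMMD1 (0.075) and SCARB1 to the lipase gene LIPG (0.12). LRP5 lay nearest to ZNRF3 (0.21), MYLIP to FZD5 (0.20) and VLDLR to FZD2 (0.49). Between 19 and 211 of all tested genes lay nearer still to each member than the gene named.

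The genes lie on 6 chromosomes in the GRCh38 annotation of GENCODE release 29. On chromosome 12 are LRP6 (12116025 to 12267012, minus strand), LRP1 (57128493 to 57213351, plus strand) and SCARB1 (124776856 to 124882668, minus strand). VLDLR is on chromosome 9 (2621834 to 2660053, plus strand) and LRP8 on chromosome 1 (53242364 to 53328070, minus strand). LRP5 is on chromosome 11 (68312609 to 68449275, plus strand), MYLIP on chromosome 6 (16129125 to 16148248, plus strand) and LRPAP1 on chromosome 4 (3503597 to 3532559, minus strand). Exons of VLDLR, LRP8 and LRP1 overlap exons of genes on the opposite strand, including VLDLR-AS1 and, for LRP1, LRP1-AS and STAT6, so reads of these could be mixed if strand was not used. The values of VLDLR and SCARB1 were whole reads at 7272 and 2742 bases. Those of LRP1, LRP5, LRP6, LRP8 and MYLIP were fractions of reads, from sixths for LRP1 and LRP5 to 1560 parts for LRP8.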

How the data were processed

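Per the labels' protocols, Trizol RNA of the 4 groups went through a TruSeq preparation from Illumina. The submitters' processing notes name CASAVA 1.8.2, TopHat2 2.0.9 and hg19, and the sources used here do not give the counting program or its use of strand. The deposited values are RPKM per RefSeq transcript, computed by the authors. Analysis used log2(RPKM + 1) and limma 3.58.1 (R 4.3.3) with an intensity trend, line and siRNA as terms, and Benjamini-Hochberg adjustment over the 12039 genes that reached 1 RPKM in some library. The fit has 1 residual degree of freedom, which is the difference of the siRNA change between the lines. It is moderated by 7.42 prior ones, so each SE and p-value rests mostly on spread shared with the other tested genes. That spread may be technical, and no spread between cultures enters. The script was tested on simulated data, which says nothing of the real spread between cultures. Within a line, a 2-fold difference was counted with no test.

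Read numbers were recovered for 7 members by a search for the transcript length and fraction of a read, smallest in their product, that made all values whole parts of reads (tolerance 0.002 of a part, for reads shared among up to 20 places). Intervals are exact Clopper-Pearson at 95%. Fractions of reads, as for LRP1, LRP5, LRP6, LRP8, MYLIP and MESDC2, were rounded to whole reads first. The intervals do not cover error from sharing reads among places. The members and lists were chosen with earlier results of these data known. From each list the text names genes called for the siRNA, and up to 3 with the largest siRNA change and 3 with the largest line difference among genes reaching 5 RPKM, and 1 gene so chosen is not reported here. Further Wnt target genes and further genes of the UBE2D3 family are named beside LGR5 and UBE2D3. For likeness the rule took the nearest 2 list genes, and the nearest is given. Alternatives were other pseudocounts, filters, scalings, trends, fold rules and terms, and each library left out.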

Additional observations from a re-analysis of the deposited data

Results flagged for a closer look

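The change with ODC1 siRNA had opposite signs in Huh1 and Huh7 for 4 of the 8 genes. The change in Huh7 minus that in Huh1, on the log2(RPKM + 1) scale, was 0.87 for VLDLR, -0.24 for LRP1, -0.32 for LRP5 and 0.15 for LRPAP1. A difference at least as large was found in 1.15%, 29.5%, 19.4% and 51.1% of all tested genes, in the same order. The share of all genes with opposite signs was not counted, so the count of 4 is not read as a trait of these genes. With 1 library per group these differences between the lines were not tested. The opposite signs of all 4 were also found with upper quartile scaling and quantile normalization. MYLIP joined them under both. Its changes in Huh1 and Huh7 were -0.0023 and 0.41 with upper quartile scaling, and -0.043 and 0.45 with quantile normalization. For LRPAP1 the change in Huh1 was only -0.015.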

How the results depend on the processing

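The number of receptor genes called for the siRNA over both lines was 0, and became 1 with upper quartile scaling and 1 with a trend on counting variance, in both cases SCARB1. Past 2-fold in Huh7 it was 0, and 1 with a 1.5-fold rule (VLDLR). Between the lines 6 of the 8 genes were called under all 8 alternatives, the exceptions being LRP1 and SCARB1. Over all genes the line calls were 8891 in the main fit and between 7108 and 9341 in the alternatives. The share of all genes called under every alternative was not counted, so the 6 of 8 has no such share beside it. Counts over all genes moved more for the siRNA and for the fold rules. For the siRNA over both lines, 255 became 54 with a pseudocount of 0.1, 108 with a filter at 5 RPKM, 480 with upper quartile scaling and 52 with quantile normalization. It was 0 with no filter, without a trend and with no line term, where limma gave 2040, 1830 and 22 genes an unadjusted p below 0.05. In Huh1, 9 became 45 with a pseudocount of 0.1 and 150 at 1.5-fold, in Huh7 88 became 236 and 650, and between the control libraries 3239 became 5676 at 1.5-fold. The mean siRNA change of LRP5 turned to -0.0058 with quantile normalization. Quantile normalization gives all libraries the same distribution of values. It thereby moved the median line difference of all tested genes by -0.13 with control siRNA, from 0.14 to 0.015. Why the distributions differed between the lines was not tested. With a library left out no degree of freedom remains, and the effect equals that in the line or siRNA that keeps both libraries, which is -0.20 or 0.67 for VLDLR. The labels carry no replicate numbers, and the line term already pairs each ODC1 library with the control of its own line. MYLIP, with at most 181 reads, has the fewest reads of the 7 members whose reads were recovered.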

Other observations

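The level of SCARB1 relative to LRP1 was alike in the lines under each siRNA. The ratio of their RPKM was 2.08 in Huh1 and 2.08 in Huh7 with control siRNA, and 1.54 and 1.58 with ODC1 siRNA. The ratio of LRP5 to LRP6 was 2.01 in Huh1 and 3.80 in Huh7 with control siRNA, and 1.86 and 2.61 with ODC1 siRNA. That of LRP1 to its chaperone LRPAP1 was 5.16 and 2.68 with control siRNA, and 5.81 and 2.27 with ODC1 siRNA. These ratios were chosen after the values were seen, and each rests on 1 library.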
